A study of Mus musculus with 26 samples.

Results

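The murine lung cancer lines EA1, EA2 and EA3 were cultured for several days in the solvent DMSO, without drug, and the change of their mRNA levels with time in culture is described here. The samples were chosen by treatment and day as the labels give them. They are the DMSO cultures of days 1 and 2, called early (6 libraries), and of days 3 and 5, called late (6 libraries), 12 of the 26 libraries of the series. There was 1 library per line and day, so that each line contributes 2 early and 2 late libraries. Day 7, held by EA3 alone, was not used.

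All groups carry the EML4-ALK fusion, and the lines were isolated from C57BL/6 mice. The fusion joins the kinase domain of ALK to EML4, which keeps the kinase active. Each is a single line, and EA2 was made in another laboratory. Cells grew in RPMI medium with fetal bovine serum and 0.1% DMSO. The matching cultures with the ALK inhibitor alectinib (100 nM, 12 libraries of the same lines and days) are used only for the last comparison. The sources used here give neither the number of cells seeded or harvested nor the times at which medium was changed. Time, cell density and the state of the medium therefore cannot be told apart.

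In a dish, the space per cell, oxygen, glucose and amino acids fall as cells multiply. Low oxygen stabilises the transcription factor HIF1A, which acts on genes of glucose uptake, glycolysis and vessel growth. Lack of amino acids, or stress in the endoplasmic reticulum, raises translation of ATF4, which acts on genes of amino acid transport and synthesis. Growth arrest brings CDK inhibitors up and the E2F and DREAM targets of S phase and mitosis down. None of these signals was measured directly, and the values below are mRNA levels only.

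Library totals lay between 6606091 and 11251905 counts. Levels are given as CPM (counts scaled to library size) after TMM scaling, and changes as log2 fold changes of late over early with line as block, from the quasi-likelihood test of edgeR, where adjusted p-values follow Benjamini-Hochberg (threshold 0.05). Where nothing else is said, 3 values for a group are its lowest, median and highest library, and ± is the standard error. The libraries come from separate days of single lines, so the p-values measure the spread between days as well as any other difference between dishes. The fit treats the libraries of a group as independent, although the lines share the same days. An effect of a day common to the lines is therefore not fully measured by these p-values. The first principal component held 42.7% of the variance. The epithelial keratin Krt18 stood at 1277 to 2411 CPM in the 12 libraries, and the 9 epithelial markers summed to 1786 to 7216 CPM early and 2106 to 8975 CPM late. The keratins Krt8 (208 to 4018 CPM) and Krt19 (212 to 2455 CPM) and the cadherin Cdh1 (42.9 to 688 CPM) were measured in every library, and Krt7 spanned 0.0969 to 1058 CPM. The 4 other members of the list were lower. Epcam had a median of 1.03 CPM and a maximum of 210.0 CPM, Cldn7 had a median of 0.133 CPM, and Cldn4 was at 0 in 7 and Esrp1 in 6 libraries. Of the alveolar markers, Sftpa1, Nkx2-1 and Hopx had no count and Sftpc at most 1 count in a library, and Sftpd reached 35 counts. Abca3 (5.11 to 83.2 CPM), Lpcat1 (31.2 to 87.0 CPM), Cav1 (84.0 to 565 CPM) and Aqp5 (30.6 to 266 CPM) were measured in every library. Of the immune markers, Ptprc and Cd3e had at most 4 counts in a library, whereas Cd14 was at 18.9 to 170 CPM and Cd68 at 1.34 to 91.2 CPM. Of the fibroblast markers, Lum, Thy1 and Fap had at most 2 counts, whereas Dcn reached 52.6 CPM, Pdgfrb 37.6 CPM, Col1a2 21.1 CPM and Col1a1 16.5 CPM in single libraries.

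Exon length moved with the comparison. Genes that were higher late were longer, with a median exon length of 5974 bases against 3501.5 bases for those lower late and 4274 bases for genes not called. Among the 2576 shortest genes tested, 102 were higher and 314 lower, and among the 2576 longest, 418 were higher and 111 lower. Between libraries, the Spearman correlation across genes of exon length with the deviation of the level from the line's mean ran from -0.515 in EA3 day 2 to 0.410 in EA3 day 3. On day 2 it was negative in each line (-0.265 in EA1, -0.152 in EA2) and on day 3 positive in each (0.188 in EA1, 0.0558 in EA2), whereas days 1 and 5 held both signs. Day is not a term of the fit. Its mean was -0.134 ± 0.232 early and 0.113 ± 0.185 late (SD, n = 6 each; exact two-sided permutation within lines, p = 0.102, adjusted p = 0.611 over 6 library measures, where 0.00926 was the smallest p possible). With offsets for exon length and GC content in each library, 1154 genes were higher and 1324 lower, close to the counts without them.

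**Figure D1:**
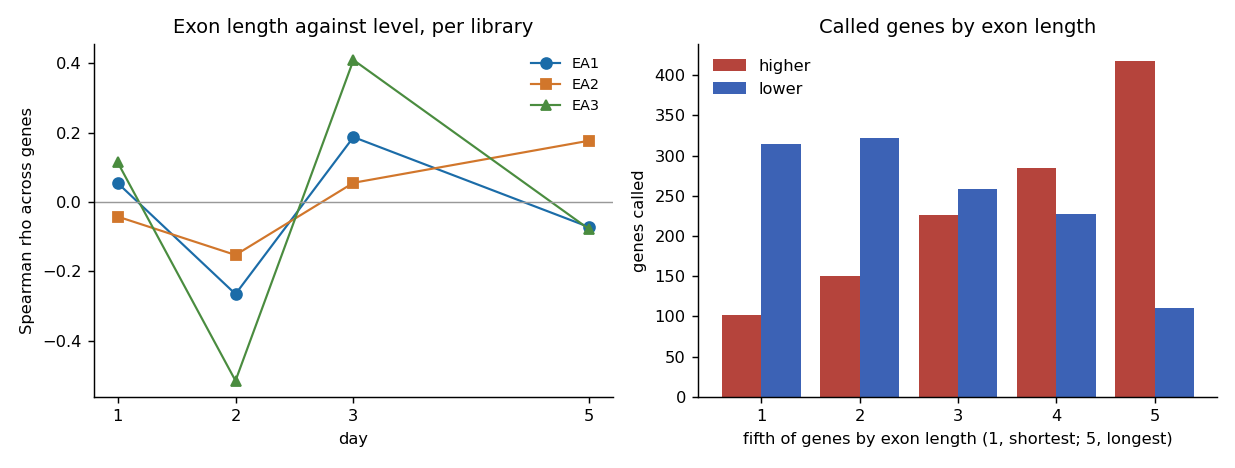
Spearman correlation across genes of exon length with each DMSO library's deviation from its line's mean, by day and line (left), and numbers of genes called higher or lower late for genes in 5 bins of exon length (right). The shortest bin holds 102 genes higher and 314 lower, the longest 418 and 111, and EA3 days 2 and 3 stand at -0.515 and 0.410.

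Between early and late cultures, genes were called in both directions. Most tested S phase and mitosis genes were lower late, and a minority of the hypoxia, amino acid stress and MAPK lists were higher, as counted below. Of 12886 genes tested, 1181 (9.16%) were higher late and 1232 (9.56%) were lower. The balance moved with scaling and filter, to 1324 and 1091 with DESeq2 size factors, 1030 and 1454 with library size alone and 1672 and 1095 with no filter on low counts. A change of at least 1 on the log2 scale was reached by 466 and 330 of them. The sign was the same in the 3 lines for 2378 of the 2413 genes called (98.5%) and for 55.5% of all genes tested, although the fit over the lines in part selects for a common sign. Leaving out day 1 in every line left 86 genes higher and 107 lower, and leaving out EA3 left 109 and 61. Leaving out 1 library at a time gave 726 to 1460 higher and 536 to 1516 lower, with the lowest counts without EA1 day 1 and the highest without EA1 day 3.

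Sox9 is a transcription factor of progenitor cells in many epithelia, lung included. Its level was 56.4, 78.1 and 112 CPM early and 144, 466 and 521 CPM late. Every late library was above every early library, and within each line both late libraries were above both early ones. The log2 fold change was 2.22 ± 0.19 (4.67-fold, adjusted p = 0.000289), and the lines had 2.28 (EA1), 1.67 (EA2) and 2.72 (EA3). Sox9 was picked after its values were seen, as were Hilpda, Egln3, Hk2, P4ha1, P4ha2, Slc2a1, Aldoa, Ldha, Adm, Ppp1r15a, Vldlr, Nupr1, Slc7a11, Trib3, Asns, Chac1, Mcm5, Cdc20, Ccne1, Mdm2, Gadd45a, Spry4, Fos and Jun, described below.

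By the rule of size, the genes with the largest rises were Espn, Gdf15, Lilr4b, Hspa1a, Eno2, Atf3, Ero1l, Csf2, Pgf and Ndrg1. Several of them belong to the hypoxia and ATF4 lists described next. Espn encodes espin, which bundles actin filaments. It lay at 0.0885, 0.244 and 6.36 CPM early and 0.678, 3.99 and 124 CPM late, and the highest values of both groups came from EA3. Lilr4b encodes an inhibitory receptor of the leukocyte immunoglobulin-like family and was at 0 to 15.0 CPM early and 0.0825 to 156 CPM late. In EA2 it did not pass 0.194 CPM in any library. Hspa1a, an inducible HSP70 chaperone, has a near-identical neighbour, Hspa1b, and its level is uncertain. It stood at 63.5 CPM in EA1 day 5 and 128 CPM in EA3 day 5, and no other library exceeded 10.2 CPM. Its call was lost under 15 alternatives and kept under 13. Csf2 encodes the growth factor GM-CSF and moved from 0.724, 2.32 and 8.84 CPM to 4.04, 15.6 and 52.8 CPM (log2 fold change 3.02 ± 0.59, adjusted p = 0.00721). Csf2 shares 12% of its exon bases with another gene, and its counts may be mixed.

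The 10 largest falls were in Gm10282, Lgals2, Hmgn2, Mxd3, Dna2, Kif20a, Tubb3, Tmem238, Mns1 and Ankle1. Hmgn2 encodes a nucleosome-binding protein of the HMGN family. Its level was 96.2, 151 and 224 CPM early and 17.8, 31.2 and 58.5 CPM late, and the groups did not overlap (log2 fold change -2.28 ± 0.27, adjusted p = 0.00202). Hmgn2 and Gm10282, whose sequences may be related copies, could share reads and are uncertain. Tubb3, a beta-tubulin, had 16.6, 32.1 and 79.4 CPM early and 5.34, 8.82 and 14.9 CPM late, again without overlap. Mxd3 encodes a MAX partner of the MXD family that is produced in S phase, and Dna2 a nuclease-helicase of DNA replication. Mxd3 went from 6.13, 13.6 and 25.1 CPM to 0.259, 2.79 and 13.3 CPM. Dna2 went from 10.0, 21.6 and 31.9 CPM to 1.62, 4.52 and 12.9 CPM. For both genes the highest late library was EA2 day 5, and it lay within the early range. Kif20a shares 29.3% and Mns1 53% of their exon bases with another gene and are uncertain.

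**Figure D2:**
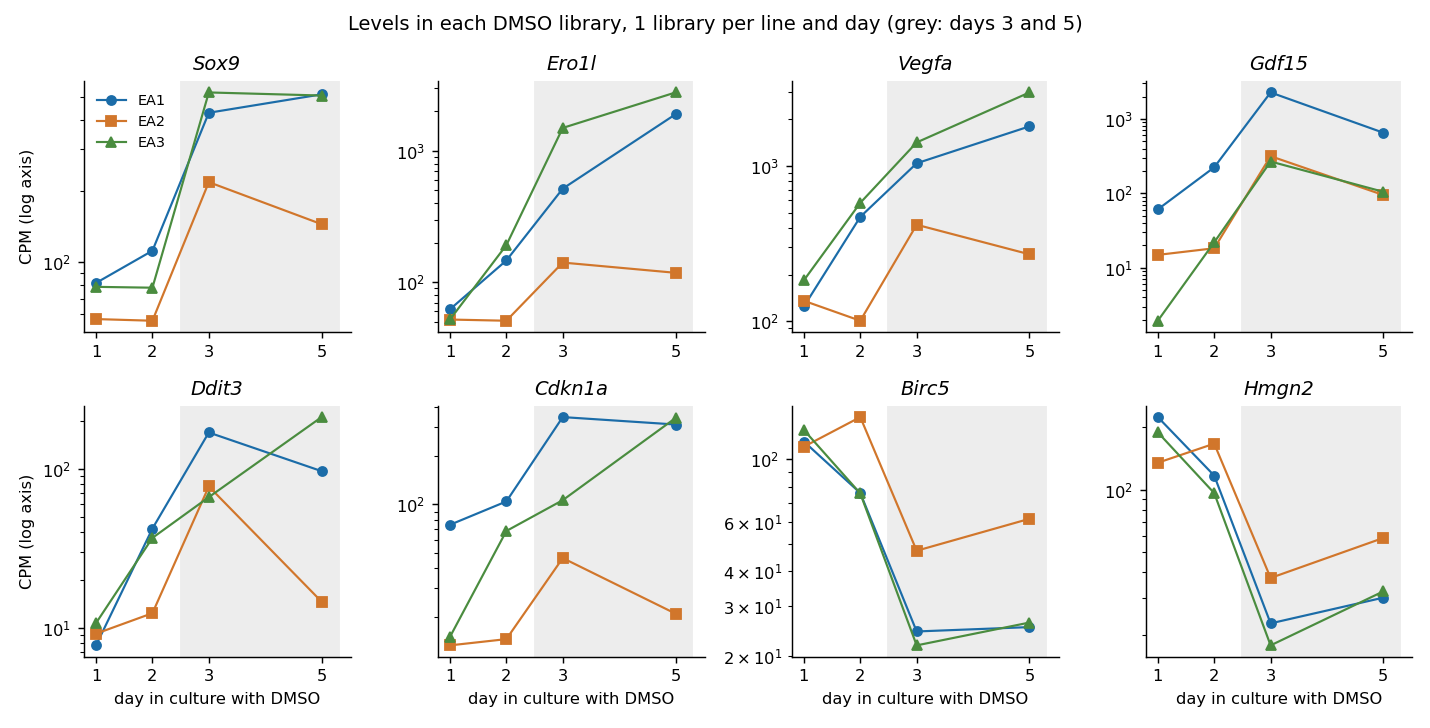
CPM (log axis) of named genes in DMSO cultures by day, 1 line of points per cell line. Sox9 and Birc5 show early and late groups that do not overlap, while Ero1l and Gdf15 overlap because EA2 stayed low late or EA1 was already high early.

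Genes of glycolysis and the hypoxia response were higher in late cultures in 13 of 37 tested members and lower in 0, against 9.16% and 9.56% of all genes. The list median was 0.93, against 0.01 for all genes, and 34 members had a log2 fold change above 0. EA1 had a median of 1.01, EA2 of 0.34 and EA3 of 1.25. The count fell to 4 members without day 1 and to 1 without EA3. With the offsets for exon length and GC content it was 17.

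Promoters of 2 members that rose are printed because they hold the core of the hypoxia response element, ACGTG, to which HIF1A binds. The sequences are the 250 bases before the RefSeq transcript start on GRCm38.p6, read in the direction of transcription, with matches to ACGTG or its reverse complement CACGT in capitals. P4ha2 is at chr11:54100674-54100923, plus strand, and Hk2 at chr6:82774455-82774704, minus strand.
P4ha2: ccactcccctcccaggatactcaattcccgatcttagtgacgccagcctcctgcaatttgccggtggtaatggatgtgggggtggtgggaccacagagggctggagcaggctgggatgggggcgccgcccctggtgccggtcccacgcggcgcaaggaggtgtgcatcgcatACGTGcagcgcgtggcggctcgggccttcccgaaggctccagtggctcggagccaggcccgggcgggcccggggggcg
Hk2: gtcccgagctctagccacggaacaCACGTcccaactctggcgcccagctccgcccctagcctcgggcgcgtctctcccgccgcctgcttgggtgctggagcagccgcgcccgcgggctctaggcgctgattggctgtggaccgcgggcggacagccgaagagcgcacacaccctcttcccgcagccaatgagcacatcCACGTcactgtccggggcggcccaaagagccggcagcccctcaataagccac

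The motif was searched on both strands in windows from 250 bases before to 50 bases after each start. Of the 35 members with a promoter entry, 24 (68.6%) held it in at least 1 promoter, against 5878 of 26994 genes (21.8%) and 6439 of all 32817 promoters (19.6%). ACGTG also occurs inside the E-box CACGTG. Many members entered the list as known HIF1A targets, so the share describes the list and not these cultures. Among tested genes with an entry, 286 of 909 higher genes (31.5%), 254 of 983 lower genes (25.8%) and 2311 of 7702 genes not called (30.0%) held the motif.

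Ero1l encodes the oxidase that makes disulfide bonds in the endoplasmic reticulum and is a HIF1A target. Its level was 50.9, 57.1 and 192 CPM early and 118, 1007 and 2791 CPM late. EA2 stayed between 50.9 and 141 CPM over the 4 days, whereas EA1 reached 1903 CPM and EA3 2791 CPM on day 5. The log2 fold change was 3.05 ± 0.55 (adjusted p = 0.00524), or 3.54, 1.33 and 4.14 by line in the order EA1, EA2, EA3, which is kept below. Vegfa, the main vascular growth factor, was at 101, 160 and 579 CPM early and 270, 1231 and 2980 CPM late (2.11 ± 0.38, adjusted p = 0.00516). Its early maximum was EA3 day 2 and its late minimum EA2 day 5. Pgf encodes placental growth factor, a relative of Vegfa. It had 6.02, 16.4 and 37.1 CPM early and 41.2, 86.9 and 351 CPM late, which do not overlap (2.84 ± 0.61, adjusted p = 0.0102).

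Glucose uptake and glycolysis moved in part. The glucose transporter Slc2a1 was at 113, 156 and 305 CPM early and 157, 360 and 1126 CPM late (log2 fold change 1.31 ± 0.36, adjusted p = 0.0242). Hexokinase Hk2 lay at 85.2, 161 and 258 CPM early and 101, 364 and 818 CPM late, and changed by 1.18, 0.20 and 1.39 in the lines (0.93 ± 0.21, adjusted p = 0.0126). Groups overlapped for both. Pfkp, the platelet phosphofructokinase, had 9.27, 42.0 and 244 CPM early and 23.1, 176 and 501 CPM late, and its highest early value was EA1 day 2. Eno2, an enolase of neurons that hypoxia induces elsewhere, rose from 0.103, 3.08 and 8.74 CPM to 0.872, 24.4 and 75.8 CPM (3.14 ± 0.49, adjusted p = 0.0038). Aldoa, an abundant aldolase, changed by 0.78 ± 0.23 (adjusted p = 0.0308). Lactate dehydrogenase Ldha did not pass the test, at 1388, 2067 and 2876 CPM early and 878, 1721 and 4281 CPM late (-0.05 ± 0.26, adjusted p = 0.909). Its line values were 0.22, -0.60 and 0.22, and its sign changed under several alternatives.

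Other members act outside glycolysis. P4ha1 and P4ha2 are catalytic subunits of collagen prolyl hydroxylase. P4ha1 was at 91.5, 132 and 172 CPM early and 164, 266 and 487 CPM late, and P4ha2 at 13.0, 41.7 and 131 CPM early and 54.7, 140 and 581 CPM late. Both rose (1.11 ± 0.26 and 1.76 ± 0.41, adjusted p = 0.0138 each), and in both the groups overlapped. Egln3, a prolyl hydroxylase that marks HIF proteins for decay, moved from 33.2, 94.7 and 334 CPM to 50.8, 173 and 720 CPM (1.00 ± 0.31, adjusted p = 0.04), and lost its call under 17 alternatives and kept it under 13. Ndrg1, a stress-response gene whose product is linked to differentiation, had 36.6, 43.5 and 218 CPM early and 94.7, 516 and 2329 CPM late (2.70 ± 0.55, adjusted p = 0.00822). Hilpda coats lipid droplets and went from 12.9, 30.1 and 112 CPM to 38.4, 102 and 682 CPM, although it was not on the list. Adm, which encodes the vasodilator adrenomedullin, passed the test but was at 0 in several libraries of both groups. Adm reached 6.48 CPM in EA3 day 2, 11.1 CPM in EA3 day 3, 208 CPM in EA3 day 5 and 5.61 CPM in EA1 day 5, and was at or below 0.177 CPM elsewhere.

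In the list of ATF4 targets and the amino acid response, 12 of 37 tested members were higher late and 0 lower, against 9.16% and 9.56% of all genes, with a median of 0.81. The medians by line were 0.59, 0.99 and 0.73, so EA2 had the largest of the 3 here and the smallest in the hypoxia list, a contrast of medians that was not tested. Without day 1 the count was 3 and without EA3 it was 2. With the length and GC offsets it was 15.

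The promoters of Atf3 and Slc7a11, both higher late, are shown because they carry the ATF4 composite element TGATGNAA, where N is any base. Matches on either strand are in capitals. Atf3 is at chr1:191183334-191183583, minus strand, and Slc7a11 at chr3:50443614-50443863, minus strand, again as the 250 bases before the RefSeq start on GRCm38.p6.
Atf3: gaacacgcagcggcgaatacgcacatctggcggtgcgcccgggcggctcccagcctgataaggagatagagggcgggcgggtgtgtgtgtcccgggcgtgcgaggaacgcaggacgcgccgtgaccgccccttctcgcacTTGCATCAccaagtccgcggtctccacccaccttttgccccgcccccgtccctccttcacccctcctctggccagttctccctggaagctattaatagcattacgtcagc
Slc7a11: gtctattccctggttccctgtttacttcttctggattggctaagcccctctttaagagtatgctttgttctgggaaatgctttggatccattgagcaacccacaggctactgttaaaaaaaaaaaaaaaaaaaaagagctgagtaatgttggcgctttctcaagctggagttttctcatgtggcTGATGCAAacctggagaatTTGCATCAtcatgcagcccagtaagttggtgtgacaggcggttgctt

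Slc7a11 holds a match on each strand. Of 30 list members with an entry, 11 (36.7%) held the element in at least 1 promoter, against 4.51% of all genes and 3.97% of all promoters of the same length. As with the hypoxia list, known targets were listed, and a match is not a measured binding site.

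The largest change in this list was in Gdf15, a secreted TGF-beta family cytokine of the stress response. It was at 1.95, 20.2 and 224 CPM early and 95.0, 292 and 2270 CPM late. EA1 held the highest early value (day 2) and the highest late value (day 3), and within every line both late libraries were above both early ones. The log2 fold change was 3.65 ± 0.57 (12.5-fold, adjusted p = 0.0038), with 3.36, 3.63 and 3.98 in the 3 lines. Atf3 encodes a stress-induced bZIP factor and stood at 2.38, 7.64 and 18.1 CPM early and 9.57, 93.1 and 221 CPM late (3.06 ± 0.63, adjusted p = 0.00867). Ddit3 encodes CHOP, a bZIP factor of the unfolded protein response. It was at 7.75, 11.5 and 42.1 CPM early and 14.6, 87.1 and 212 CPM late (2.36 ± 0.50, adjusted p = 0.00975). For both, EA2 day 5 was the lowest late library and fell within the early range. Ddit3 changed by 2.42, 2.10 and 2.55 in the lines.

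Ppp1r15a encodes GADD34, which restores translation after stress. It was at 17.0, 27.8 and 56.8 CPM early and 24.8, 153 and 666 CPM late (2.5 ± 0.52, adjusted p = 0.00885) and is not on the list. Slc7a11, the cystine-glutamate exchanger, had 39.3, 75.7 and 184 CPM early and 87.6, 159 and 640 CPM late, the last in EA3 day 3 (1.27 ± 0.33, adjusted p = 0.021). Nupr1, a small stress-induced chromatin protein, was at 27.4, 56.9 and 172 CPM early and 106, 228 and 470 CPM late. Vldlr, a lipoprotein receptor, went from 26.2, 45.0 and 168 CPM to 93.0, 204 and 274 CPM. Both rose (1.59 ± 0.41 and 1.55 ± 0.36), with overlap between the groups. Aldh1l2, a mitochondrial enzyme of folate metabolism, changed by 2.44 ± 0.39 (adjusted p = 0.0038) but shares 14.1% of its exon bases with another gene.

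Other well-known targets did not pass the test. Trib3, a pseudokinase that ATF4 induces, was at 12.6, 26.6 and 163 CPM early and 44.3, 189 and 323 CPM late (1.74 ± 0.59, adjusted p = 0.0564). Asns, asparagine synthetase, had a log2 fold change of 0.93 ± 0.34 (adjusted p = 0.0712). Chac1, which degrades glutathione, had 1.18 ± 0.75 (adjusted p = 0.286), and the lines differed widely (-0.08, 3.6 and 0.49). In EA1 and EA3, Chac1 stood at 7.13 and 10.1 CPM on day 1 and already at 90.2 and 66.0 CPM on day 2. In EA2 it was at 4.59 and 5.40 CPM on those days and 85.1 CPM on day 3. These genes changed between days 1 and 2 in a pair of lines, which the early group puts together.

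Cell division genes were lower in late cultures. Of 43 S phase genes, 33 were lower and 0 higher, and of 54 G2/M phase genes, 42 were lower and 0 higher, against 9.56% lower among all genes. Every S phase gene and 53 of the 54 G2/M genes had a log2 fold change below 0. The medians were -0.98 and -1.08, and by line -1.03, -0.46 and -1.35 for S phase and -1.58, -0.47 and -1.30 for G2/M. Without day 1, 6 S phase and 16 G2/M genes were past the threshold, and without EA3, 3 and 6 were. Of 41 replication-dependent histone genes, 4 passed the filter on low counts, and 1 of them (Hist1h4i, -1.17 ± 0.36, adjusted p = 0.0413) was lower. It lost its call under 19 alternatives and kept it under 10. The medians of these 4 were -0.85 (EA1), 0.76 (EA2) and -1.62 (EA3). Fewer dividing cells and less of these mRNAs per dividing cell cannot be told apart in bulk RNA, which holds for every gene described here.

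Promoters of Cdc20 and Mki67 are shown because they carry the CHR element TTTGAA and CCAAT boxes, through which the DREAM complex and NF-Y act on mitosis genes. Matches to either motif on either strand are in capitals. Cdc20 is at chr4:118437344-118437593, minus strand, and Mki67 at chr7:135716380-135716629, minus strand, both the 250 bases before the RefSeq start on GRCm38.p6.
Cdc20: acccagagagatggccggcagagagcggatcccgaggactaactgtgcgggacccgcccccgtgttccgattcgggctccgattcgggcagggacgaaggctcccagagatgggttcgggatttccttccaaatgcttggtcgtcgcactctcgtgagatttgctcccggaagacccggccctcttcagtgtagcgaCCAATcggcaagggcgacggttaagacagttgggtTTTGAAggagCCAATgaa
Mki67: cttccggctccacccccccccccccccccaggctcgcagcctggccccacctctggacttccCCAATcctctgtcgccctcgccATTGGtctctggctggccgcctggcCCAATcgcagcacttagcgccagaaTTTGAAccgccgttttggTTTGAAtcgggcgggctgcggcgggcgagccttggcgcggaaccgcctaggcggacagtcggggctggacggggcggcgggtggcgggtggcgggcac

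TTTGAA was found in at least 1 promoter of 33 of 47 G2/M genes with an entry (70.2%), against 20.2% of all genes and 17.9% of all promoters. CCAAT was found for 36 of the 47 (76.6%), against 41% and 37.4%. Both motifs are short and common in promoters of every kind. The list holds known cell cycle genes, so these shares describe the list and not these cultures. Among tested genes with an entry, TTTGAA was held by 11.8% of higher, 19.8% of lower and 13.7% of genes not called. For CCAAT the shares were 40.4%, 48.8% and 42.8%.

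Birc5 encodes survivin, an inhibitor of apoptosis and part of the chromosomal passenger complex. It was at 75.7, 113 and 142 CPM early and 21.8, 25.8 and 61.5 CPM late. The groups did not overlap, and the 2 highest late values were both EA2. The log2 fold change was -1.74 ± 0.20 (3.35-fold lower, adjusted p = 0.00198), with -1.95, -1.21 and -2.08 in the lines. Cdc20, an activator of the anaphase-promoting complex, went from 102, 176 and 229 CPM to 24.7, 46.6 and 93.3 CPM, without overlap (-1.77 ± 0.27, adjusted p = 0.0038). Aurka, the kinase of spindle poles, was at 55.9, 96.8 and 133 CPM early and 19.9, 40.8 and 66.4 CPM late. Pimreg, a regulator of the metaphase to anaphase step, was at 62.1, 101 and 210 CPM early and 13.9, 21.6 and 133 CPM late, the last in EA2 day 5. The proliferation marker Mki67 was at 185, 530 and 1133 CPM early and 124, 219 and 490 CPM late (-1.21 ± 0.32, adjusted p = 0.023). Its lowest early value, EA3 day 2, lay below the late median, and its change was -0.39 in EA2.

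Among the genes of DNA synthesis, Tyms encodes thymidylate synthase. It had 55.1, 75.4 and 88.5 CPM early and 10.6, 22.6 and 42.4 CPM late, without overlap (-1.77 ± 0.26, adjusted p = 0.0038). Rrm1 and Rrm2 are the subunits of ribonucleotide reductase, which makes deoxynucleotides. Rrm1 was at 139, 316 and 402 CPM early and 57.7, 98.4 and 236 CPM late, and Rrm2 at 158, 331 and 426 CPM early and 65.5, 121 and 184 CPM late. Both fell (-1.44 ± 0.26 and -1.47 ± 0.23), with overlapping groups. Mcm5, a subunit of the replicative helicase, moved from 94.5, 243 and 314 CPM to 29.0, 98.7 and 177 CPM (-1.51 ± 0.30, adjusted p = 0.00721). Rfc2, of the clamp loader, fell by 1.01 on the log2 scale, but shares 15.1% of its exon bases with another gene.

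Of 22 tested G1 cyclins, CDKs and CDK inhibitors, 2 were higher (Cdkn1a and Rb1), a share near the 9.16% of all genes, and 5 lower (Ccne1, Ccne2, Cdk2, Cdk4 and Cdkn2c), against 9.56%. Both counts were 0 without day 1. Cdkn1a encodes the CDK inhibitor p21, which stops cells before S phase. It was at 13.2, 41.5 and 104 CPM early and 20.9, 209 and 348 CPM late (1.88 ± 0.39, adjusted p = 0.00867). It rose in the fit over the lines with 1.89, 1.27 and 2.44 by line, and EA2 held the lowest values of both groups. Ccne1, which encodes cyclin E1, went from 16.4, 32.6 and 52.8 CPM to 3.61, 14.4 and 28.6 CPM (-1.30 ± 0.30, adjusted p = 0.0124). Ccne2 fell by 1.48 on the log2 scale, with 17.4% of its exon bases shared with another gene. Rb1, the retinoblastoma tumour suppressor, was at 8.85, 10.2 and 25.9 CPM early and 14.2, 18.8 and 46.0 CPM late (0.84 ± 0.14, adjusted p = 0.00453). The CDK inhibitor p27, Cdkn1b, had 0.43 ± 0.20 (adjusted p = 0.151), and Myc 0.33 ± 0.22 (adjusted p = 0.3), and neither passed. Cyclin D1 (Ccnd1), with 23.4% of its exon bases shared, did not pass either (-0.47 ± 0.21, adjusted p = 0.141).

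In the list of quiescence and FOXO response genes, 8 of 24 were higher and 0 lower, against 9.16% and 9.56% of all genes (median 0.73). FOXO factors are held out of the nucleus by AKT, and act on genes of arrest and insulin signalling. Foxo3 was at 34.0, 41.5 and 83.4 CPM early and 63.8, 99 and 201 CPM late (1.10 ± 0.18, adjusted p = 0.00428). Foxo1 was at 19.0, 30.3 and 57.0 CPM early and 26.6, 66.4 and 76.3 CPM late (0.80 ± 0.17, adjusted p = 0.00983). The insulin receptor Insr (0.67 ± 0.14) and the repressor Bcl6 (0.97 ± 0.21) rose as well. In each of these 4 genes the late libraries were above the early ones within each line, and the pooled groups overlapped. The count was 0 without day 1 and 2 without EA3 in edgeR's test.

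Mdm2, a ubiquitin ligase, was at 46.3, 66.0 and 121 CPM early and 59.5, 105 and 398 CPM late (0.99 ± 0.23, adjusted p = 0.0126), with 1.74, 0.29 and 0.92 by line. In EA1, Mdm2 went from 121 and 115 CPM to 393 and 398 CPM, and in EA2 its late values of 102 and 59.5 CPM lay on both sides of the early ones. Pmaip1, which encodes the BH3-only protein NOXA, was at 3.89, 6.62 and 29.6 CPM early and 5.94, 26.7 and 152 CPM late, with overlap (1.88 ± 0.36, adjusted p = 0.00655). Its line values were 2.01, 1.41 and 2.14. Gadd45a, a growth arrest gene of the DNA damage response, changed by 2.29 ± 0.54 (adjusted p = 0.0142), with 19.1% of its exon bases shared with another gene.

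EML4-ALK signals through the MAPK pathway. In the list of MAPK feedback, immediate early and ETS target genes, 11 of 30 were higher, 0 lower and 19 not called, against 9.16% and 9.56% of all genes (median 0.56). The count was 1 without day 1 and 2 without EA3. Dusp4 and Dusp5 are phosphatases that inactivate MAP kinases in the nucleus. Dusp4 was at 78.8, 87.1 and 229 CPM early and 154, 320 and 484 CPM late (1.36 ± 0.21, adjusted p = 0.0038). Dusp5 was at 16.3, 40.5 and 69.4 CPM early and 47.7, 103 and 155 CPM late (1.49 ± 0.24, adjusted p = 0.00405). Groups overlapped in both, yet within each line both late libraries were above both early ones. Dusp5 shares 22.1% of its exon bases with another gene and is uncertain. The receptor-signalling inhibitors Spry2 (38.6, 42.8 and 58.1 CPM early, 54.9, 79.2 and 93.0 CPM late) and Spry4 (14.6, 26.6 and 57.9 CPM early, 37.8, 75.6 and 112 CPM late) rose by 0.75 ± 0.13 and 1.36 ± 0.31.

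Jun, a subunit of the AP-1 transcription factor, was at 19.6, 31.7 and 97.9 CPM early and 56.1, 115 and 276 CPM late (1.63 ± 0.43, adjusted p = 0.0211), with 2.21, 0.26 and 2.40 in the lines. Fosb rose from 2.69, 4.32 and 9.45 CPM to 8.99, 15.1 and 18.4 CPM, and Fos had 2.42, 5.54 and 18.4 CPM early and 2.39, 25.9 and 88.0 CPM late (1.86 ± 0.54, adjusted p = 0.0325). The lowest Fos level of all was in EA2 day 5, and the gene lost its call under 15 alternatives and kept it under 15. Fosl1 shares 57.2% of its exon bases with another gene, and its change of 0.83 ± 0.21 is uncertain. Other genes of the pathway did not pass the test. The phosphatase Dusp6, which acts on ERK in the cytoplasm, was at 186, 247 and 313 CPM early and 144, 258 and 391 CPM late (-0.02 ± 0.17, adjusted p = 0.96). The ETS factor Etv4 was at 81.7, 102 and 118 CPM early and 57.4, 83.4 and 131 CPM late (-0.21 ± 0.14, adjusted p = 0.313). Alk itself was at 76.1, 82.3 and 105 CPM early and 57.6, 85.6 and 134 CPM late (0.05 ± 0.14, adjusted p = 0.83). Reads of the fusion and of the native gene are not told apart in these counts, and the sign of Dusp6 and Alk changed under several alternatives.

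Of 31 tested collagens and matrix proteins, 6 were higher and 1 lower, against 9.16% and 9.56% of all genes (median 0.39). The 6 became 4 with the length and GC offsets, 1 without day 1 and 2 without EA3. Fibronectin, Fn1, was among the most abundant transcripts, at 1895, 3063 and 7318 CPM early and 5348, 6930 and 22760 CPM late (1.49 ± 0.20, adjusted p = 0.00355). The highest values were in EA1, and the ranges overlapped although each line had both late libraries above both early ones. Col4a5, a chain of basement membrane collagen, went from 16.3, 47.7 and 71.5 CPM to 36.5, 163 and 193 CPM (1.5 ± 0.35, adjusted p = 0.0134). The Notch ligand Jag1 was at 40.3, 106 and 313 CPM early and 71.7, 295 and 1324 CPM late (1.44 ± 0.21, adjusted p = 0.00379). The Notch receptor gene Notch3 was low, at 0.177, 1.03 and 3.31 CPM early and 1.09, 4.93 and 18.4 CPM late (2.24 ± 0.64, adjusted p = 0.0294), and it lost its call under 15 alternatives and kept it under 14. Jag1 and Notch3 were the 2 of 10 tested Wnt and Notch genes to pass, against 9.16% higher among all genes. The Notch target Hes1 did not pass.

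Of 19 mesenchymal genes, 5 were higher (Zeb2, Snai2, Fn1 and Itga5 among them) and 3 lower (Cdh2, Acta2 and S100a4), against 9.16% and 9.56% of all genes. These became 1 and 0 without day 1 or without EA3. Zeb2, a repressor of epithelial genes, was at 28.2, 69.7 and 81.7 CPM early and 57.3, 95.6 and 179 CPM late (0.89 ± 0.19, adjusted p = 0.00933). Of 30 epithelial junction and keratin genes, Krt19 alone passed, against 9.16% higher among all genes. It was at 212, 698 and 1249 CPM early and 358, 1459 and 2455 CPM late (0.84 ± 0.20, adjusted p = 0.0149). Among alveolar type 1 markers, the tetraspan protein gene Emp2 rose without overlap, from 89.0, 131 and 203 CPM to 218, 252 and 404 CPM (0.96 ± 0.19, adjusted p = 0.00721). Pdpn (podoplanin) had a change of 1.06 ± 0.33 and passed, but lost its call under 18 alternatives and kept it under 11, and in EA1 it did not exceed 0.125 CPM. The water channel Aqp5 fell from 68.3, 188 and 266 CPM to 30.6, 124 and 237 CPM (-0.75 ± 0.17, adjusted p = 0.011). The 8 markers of this list summed to 478 to 617 CPM early and 671 to 859 CPM late, while Hopx stayed at 0.

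Markers of other cell types were few. Of 10 immune markers, 2 passed the filter on low counts: Cd68, a lysosomal membrane protein of macrophages that other cells also make, was higher (1.34, 7.69 and 17.9 CPM early, 2.72, 40.6 and 91.2 CPM late), and Cd14, a receptor for lipopolysaccharide, was lower (-0.81 ± 0.23, adjusted p = 0.0294). Cd14 lost its call under 16 alternatives and kept it under 14. The fibroblast and pericyte receptor Pdgfrb was lower, and its counts came from EA1 almost alone, at 37.6 and 23.5 CPM early and 7.08 and 8.72 CPM late. The fibroblast list summed to 18.7 to 63.2 CPM early and 9.26 to 69.1 CPM late, the immune list to 34.0 to 189 CPM and 43.6 to 181 CPM, and the endothelial list stayed at or below 9.85 CPM. Of 10 alveolar type 2 markers, 2 passed the filter on low counts and neither was called. Of 8 tested gut and gastric lineage markers, 1 was higher and 1 lower, shares near the 9.16% and 9.56% of all genes. Hnf4a, a nuclear receptor of liver and gut, was at 2.47, 43.8 and 248 CPM early and 1.75, 22.2 and 64.3 CPM late (-1.21 ± 0.23, adjusted p = 0.00659), with the highest values in EA1 and the lowest in EA2. Sox2, a transcription factor of foregut progenitors, was at 0.354, 12.4 and 69.4 CPM early and 3.77, 36.4 and 130 CPM late (1.54 ± 0.40, adjusted p = 0.0216). The groups overlapped for both, and neither passed without day 1, without EA1 or without EA3.

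Of 27 tested inflammatory genes, 5 were higher (Relb, Tnfaip2, Tnip1, Csf2 and Ptgs2) and 0 lower, against 9.16% and 9.56% of all genes. The 5 became 0 without day 1 and 0 without EA3. Ptgs2 encodes cyclooxygenase 2, the inducible enzyme of prostaglandin synthesis. It was at 110, 169 and 194 CPM early and 143, 417 and 1663 CPM late, the highest in EA1 day 3 (1.74 ± 0.43, adjusted p = 0.0175), with 2.60, 0.27 and 2.27 in the lines. Relb, an NF-kB subunit, went from 15.7, 19.5 and 27.9 CPM to 22.1, 42.9 and 46.7 CPM (0.92 ± 0.21, adjusted p = 0.0126). For antigen presentation, 2 of 12 MHC class I genes were higher and 2 lower, against 9.16% and 9.56% of all genes. The 2 higher became 0 without day 1 or any of the 3 lines. H2-K1, a heavy chain, went from 15.1, 27.7 and 158 CPM to 29.2, 89.9 and 431 CPM (1.47 ± 0.36, adjusted p = 0.0165), with EA3 highest in both groups. Psmb10, a subunit of the immunoproteasome, fell from 13.2, 30.0 and 37.9 CPM to 4.58, 13.0 and 18.4 CPM (-1.22 ± 0.16, adjusted p = 0.00263). Of 22 interferon-stimulated genes, 1 (Oasl1) was higher and 0 lower, against 9.16% and 9.56% of all genes. Oasl1 lost its call without day 1, day 5, EA1 or EA3. Of the 28 YAP and TEAD targets, 4 were higher and 1 lower, against 9.16% and 9.56% of all genes, and 1 was higher without day 1 or without EA3. The 4 include Nt5e, the ectonucleotidase CD73, with 7.35, 24.7 and 140 CPM early and 37.5, 118 and 422 CPM late (1.98 ± 0.33, adjusted p = 0.00428), and the EGFR ligand Areg (1.46 ± 0.34, adjusted p = 0.0136).

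In metabolism outside glycolysis, 6 of 25 cholesterol genes were lower and 0 higher, against 9.56% and 9.16% of all genes (median -0.35). The 6 became 1 without day 1, 1 without EA1, 2 without EA2 and 0 without EA3. Ebp, a sterol isomerase, had 65.0, 70.9 and 73.9 CPM early and 20.9, 31.9 and 52.3 CPM late, without overlap (-1.08 ± 0.17, adjusted p = 0.0038). Mvk, mevalonate kinase, went from 35.6, 43.6 and 55.4 CPM to 8.71, 22.4 and 38.1 CPM (-1.02 ± 0.23, adjusted p = 0.0125). Of 39 lysosome and autophagy genes, 7 were higher and 1 lower, against 9.16% and 9.56% of all genes (median 0.41), and the 7 became 1 without day 1 or without EA3. Npc1, which exports cholesterol from lysosomes, was at 22.1, 29.4 and 45.2 CPM early and 41, 54.1 and 110 CPM late (1.02 ± 0.16, adjusted p = 0.00396). Gusb, beta-glucuronidase, fell from 70.1, 110 and 133 CPM to 27.9, 57.7 and 92.8 CPM (-0.92 ± 0.15, adjusted p = 0.00428). Sqstm1, the autophagy receptor p62, and the protease gene Ctsb share 17.3% and 12.8% of their exon bases with other genes, and their rises of 1.18 ± 0.23 and 0.62 ± 0.15 are uncertain.

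Of 24 NRF2 genes, 4 were higher (Hmox1, Slc7a11, Osgin1 and Abcc1) and 5 lower (Keap1, Gclm, Txn1, Pgd and Prdx1), against 9.16% and 9.56% of all genes. Both counts became 0 without day 1 and without EA3. Pgd, an enzyme of the pentose phosphate pathway, went from 273, 343 and 409 CPM to 129, 184 and 245 CPM, without overlap (-0.91 ± 0.16, adjusted p = 0.00513). Abcc1, a drug and glutathione conjugate exporter, went from 136, 188 and 271 CPM to 261, 318 and 449 CPM (0.80 ± 0.16, adjusted p = 0.00706). Of 21 endoplasmic reticulum chaperone genes, 3 were higher and 1 lower (median 0.07). Of 13 heat shock genes, 1 was higher and 3 lower. Among all genes, 9.16% were higher and 9.56% lower. No gene of either list passed in edgeR's test without day 1 or without EA3, and no endoplasmic reticulum gene without EA1. Hspd1, the mitochondrial chaperonin HSP60, fell from 573, 956 and 1275 CPM to 343, 580 and 653 CPM (-0.78 ± 0.20, adjusted p = 0.0211). Ribosome biogenesis genes had a median of -0.43 with 39 of 40 below 0, but 3 passed the test as lower, against 9.56% of all genes. The 3 became 0 without day 1, without day 5, without EA2 or without EA3, 8 without EA1 and 6 with library size alone, and the range over all alternatives was 0 to 25. Of 15 fatty acid synthesis genes, 1 was higher and 2 were lower, against 9.16% and 9.56% of all genes. None of the 15 passed in edgeR's test without day 1 or without EA3. Of 13 mitochondrial transcripts, 1 (mt-Nd1) was lower, against 9.56% of all genes. Cytosolic ribosomal protein genes centred on -0.01, and in edgeR's test 0 of 40 passed.

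**Figure D3:**
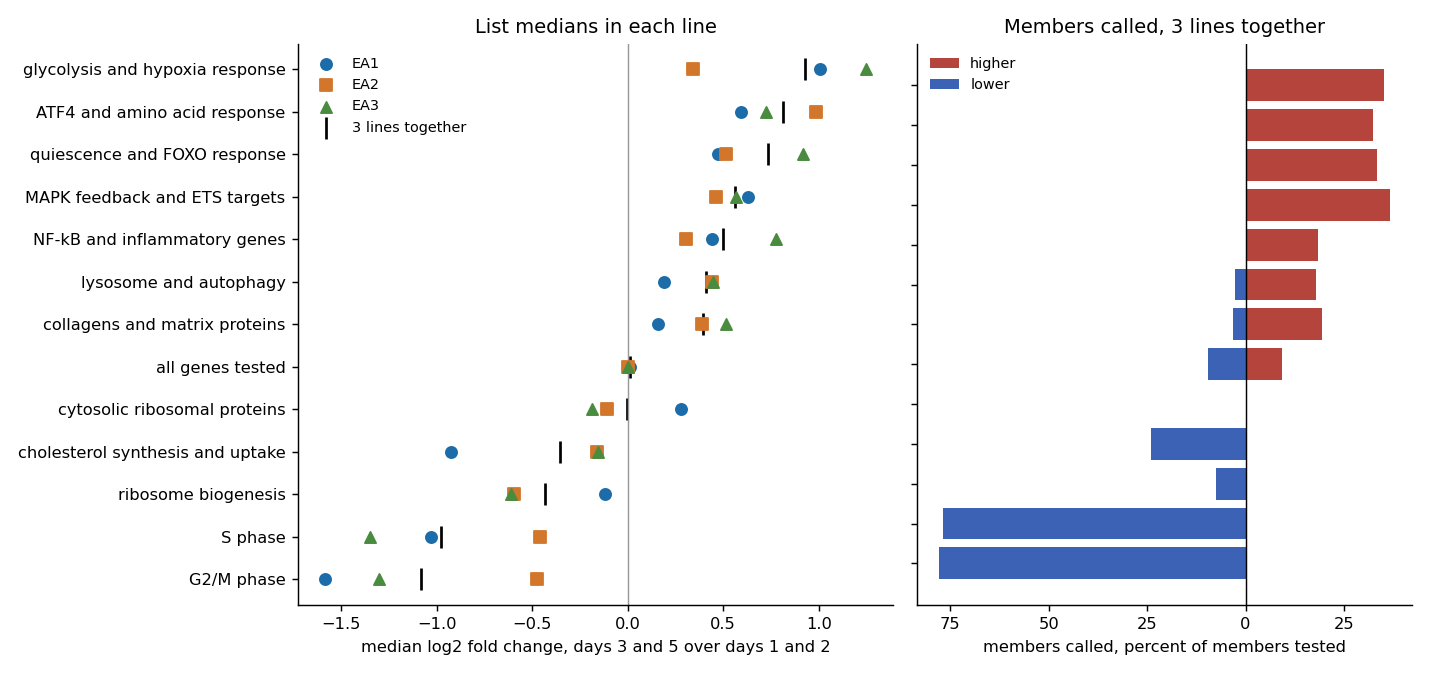
Median log2 fold change of late over early for gene lists in EA1, EA2 and EA3 (symbols) and over the lines (black bars; left), and the percent of tested members called higher or lower (right). S phase (-0.98) and G2/M (-1.08) lie lowest, hypoxia (0.93) and ATF4 (0.81) highest among the larger lists, and EA2 is nearest to 0 in the first 3 of these.

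The days within the groups differed from each other. Relative to day 1 of the same line, the hypoxia list of EA1 had a median of 0.59, 0.31 and 2.09 on days 2, 3 and 5. EA2 had 0.12, 0.16 and 0.41 on those days, and EA3 had 0.77, 1.04 and 2.17. It was highest on day 5 in each line. The ATF4 list was highest on day 3 in each line, where EA1 had 1.36, 1.86 and 0.97, EA2 had 0.16, 1.49 and 0.66, and EA3 had 0.96, 1.58 and 1.02. These courses rest on 1 library per line and day and were not tested.

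S phase genes were lower than on day 1 in EA1 (-0.63, -1.16 and -1.54) and EA3 (-0.84, -1.71 and -1.80) from day 2 onward. In EA2 they stood at 0.09 on day 2, -0.53 on day 3 and -0.34 on day 5. G2/M genes followed a similar order, where EA1 had -0.70, -1.92 and -1.82, EA2 had -0.01, -0.61 and -0.34, and EA3 had -0.75, -1.41 and -1.60. EA2 therefore held its division genes through day 2 and was less low on day 5 than on day 3. Across all genes, the median size of the difference between days 1 and 2 was 0.281, 0.197 and 0.495 by line, and between days 3 and 5 it was 0.487, 0.239 and 0.419. That between late and early means was 0.364, 0.287 and 0.451. The last are differences between means of 2 libraries and the others between single libraries, so their sizes are not directly comparable.

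**Figure D4:**
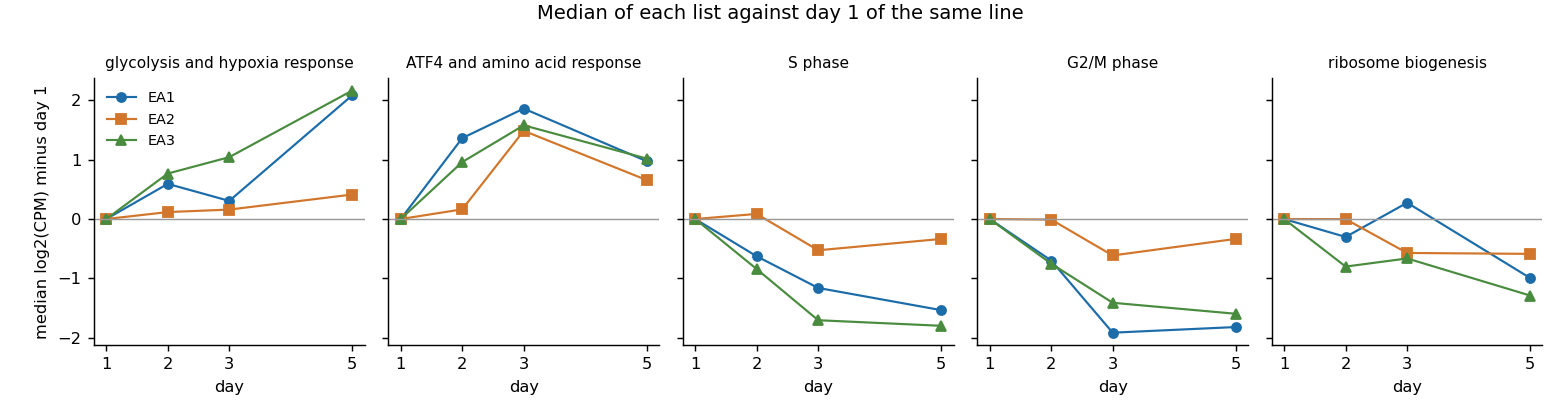
Median log2 change from day 1 of the same line for gene lists, by day and line, with 1 library per point. The hypoxia list reaches 2.09 in EA1 and 2.17 in EA3 on day 5 and 0.41 in EA2, and the ATF4 list peaks on day 3 in each line.

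Fitted line by line, with the spread estimated over the 12 libraries, late cultures of EA1 had 60 genes higher (0.466%) and 109 lower (0.846%), and those of EA3 had 262 (2.03%) and 288 (2.23%). In EA2, edgeR's test called 0 genes in each direction (0.0%), with 913 genes at an unadjusted p under 0.05, and DESeq2's Wald test called 11 higher and 5 lower. Fitted on its own 4 libraries, EA2 gave 529 higher and 321 lower, while EA1 and EA3 gave 0 and 0. Those fits differ in both the spread and the genes that pass the filter, and the order of the lines by number of genes was not the same in them. Over the genes called higher in the 3 lines together, the median log2 fold changes by line were 0.85, 0.62 and 1.06, and over those called lower -0.77, -0.53 and -0.96. The EA3 calls fell to 0 in each direction without EA3 day 1. The EA1 calls fell to 0 in each direction without EA1 day 1, EA2 day 1 or EA2 day 2.

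A test with 2 degrees of freedom for a difference in change between the lines called 0 of 12886 genes (0.0%), with 616 at an unadjusted p under 0.05; with no filter on low counts it called 101. The lowest adjusted p from edgeR in this test belonged to Htra1, a secreted serine protease (adjusted p = 0.265). In EA1 it was at 11.9 and 15.8 CPM early and 162 and 95.2 CPM late, while EA2 and EA3 held 117 to 251 CPM on all days. Lifr, the receptor of LIF, changed by -0.83, 0.54 and 2.09 by line (adjusted p = 0.33). Pdlim1, an actin-associated protein, had -0.09, -0.08 and 2.05 (adjusted p = 0.33), and its early level in EA3 (8.59 and 11.3 CPM) was below every other library. None of these passed.

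The change with time was then set against that in the alectinib cultures of the same lines and days. Cell number and the state of the medium may also differ with the drug. They cannot be told apart from an effect of ALK signalling. In the alectinib cultures alone, edgeR's test called 0 of 13486 genes in each direction (0.0%), with 2101 at an unadjusted p under 0.05. The difference of the changes, DMSO minus alectinib, passed for 1 of 14264 genes (0.00701%), which was larger late in DMSO, and for 0 in the other direction (0.0%). There were 2206 genes at an unadjusted p under 0.05, and 728 passed with no filter on low counts. For genes such as Dusp5 and Birc5, alectinib cultures were below DMSO cultures on day 1 already, so a smaller change over time can start from another level.

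The gene that passed was Dusp5, with the uncertainty of shared exons given above. On a scale common to the 24 libraries, DMSO levels on days 1, 2, 3 and 5 ran 16.9, 17.4, 79.0 and 79.1 CPM for EA1, 39.8, 43.2, 132 and 48.5 CPM for EA2, then 60.9, 71.1, 159 and 139 CPM for EA3. With alectinib, EA1 had 8.08, 5.96, 4.05 and 3.73 CPM, EA2 had 8.35, 7.27, 6.32 and 3.56 CPM, and EA3 had 16.1, 11.0, 13.0 and 6.86 CPM. No alectinib library reached the lowest DMSO library, and the DMSO levels were higher late while the alectinib levels were not. The difference of the changes was 2.11 ± 0.27 (95% interval 1.53 to 2.70, adjusted p = 0.043), from 1.49 in DMSO and -0.62 in alectinib. No gene passed without day 1, day 3 or day 5, nor without EA1 day 1, 2, 3 or 5, EA2 day 1, or EA3 day 1 or 5 in DMSO.

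Krt19, Sprr1a and Sox9 were next among the genes named here, each with an adjusted p of 0.0743. The difference was 1.72 for Krt19 (95% interval 1.10 to 2.33), which had 0.84 in DMSO and -0.85 in alectinib. Sprr1a, a cornified envelope protein, had a difference of 2.59 (1.71 to 3.48), and in DMSO was at 4.50, 47.8 and 79.0 CPM early and 7.92, 273 and 691 CPM late. On the common scale, Sprr1a on day 1 was at 431, 16.5 and 448 CPM with alectinib by line, against 65.8, 4.59 and 33.2 CPM in DMSO. Krt19 was also higher with alectinib on day 1 in each line, so both changes start from another level. Sox9 had a difference of 1.85 (1.19 to 2.51). With alectinib its level was 11.8 to 49.1 CPM in the 12 libraries, below every DMSO library.

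For most of the lists, the median lay nearer to 0 in alectinib, a difference that was not tested. Values are given here for 6 of them. In alectinib, the median change was 0.23 for hypoxia, 0.27 for ATF4, -0.31 for S phase, -0.43 for G2/M, 0.24 for quiescence and FOXO genes and 0.22 for MAPK feedback. No member of a list passed in the alectinib cultures. For Ero1l, alectinib libraries lay between 26.2 and 92.8 CPM, and the difference of the changes was 2.34 (95% interval 1.35 to 3.34, adjusted p = 0.0854). For Birc5, they lay between 9.31 and 76.0 CPM, low on day 1 already, and the difference was -0.98 (-1.89 to -0.07, adjusted p = 0.295). Other lists had medians farther from 0 in alectinib. The collagens and matrix list had 0.70 against 0.39 in DMSO, epithelial junctions and keratins -0.35 against 0.20, the epithelial markers -0.79 against 0.21, cytosolic ribosomal proteins -0.23 against -0.01 and the 4 tested fibroblast markers 1.31 against -0.60. Smaller shifts away from 0 were seen in the lists of endoplasmic reticulum chaperones, YAP and TEAD targets, interferon-stimulated genes and alveolar type 2 markers. Fn1 in alectinib was at 3226 to 10060 CPM.

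**Figure D5:**
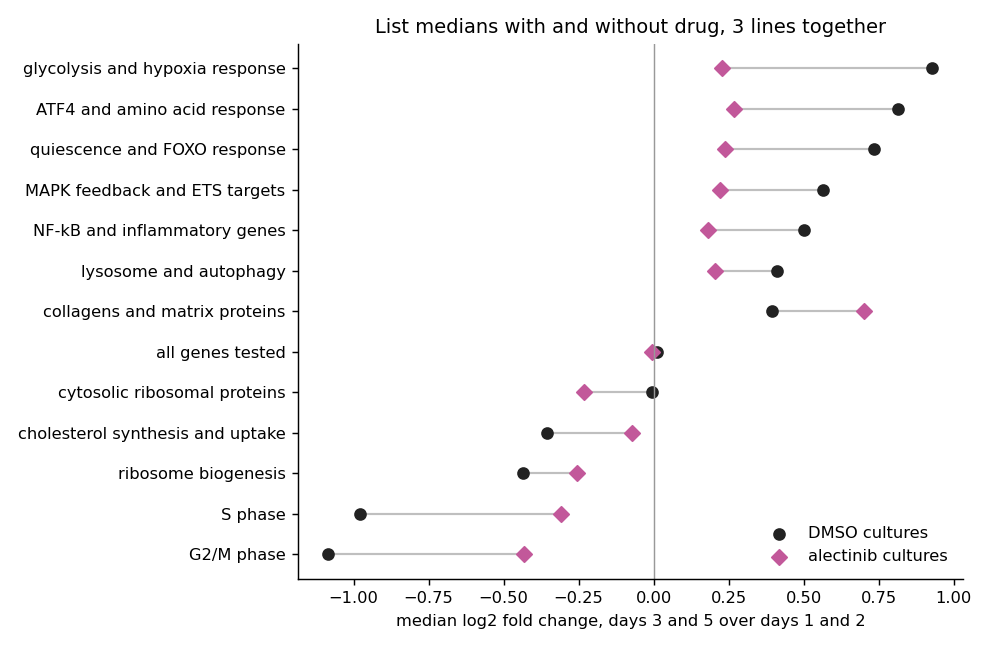
Median log2 change of late over early over the 3 lines for gene lists, with a dot for DMSO and a diamond for alectinib cultures. S phase (-0.98 against -0.31), G2/M (-1.08 against -0.43) and hypoxia (0.93 against 0.23) lie nearer to 0 in alectinib, and collagens (0.39 against 0.70) lie farther.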

How the data were processed

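The authors checked reads with FastQC, trimmed them with bbduk, and aligned them to mm10 with STAR, whose own counter gave the deposited values, a raw count per gene without normalization. The annotation release, the strand setting and tool versions are not given in the sources used here, so genes that share exon bases with another gene may share counts. Of 55415 symbols, 24 were date numbers that name no gene (0.129% to 0.201% of the counts in each library) and entered neither library sizes nor tests.

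The 12 DMSO libraries were fitted with edgeR 4.0.16 in R 4.3.3 (TMM, filterByExpr by line, quasi-likelihood test with robust estimation, line as block). Annotation, summaries, promoter searches and figures were made in Python 3.11.15. Late and early libraries are paired by cell line, as the labels give it. The comparison with alectinib used 24 libraries with 12 blocks of line and day. Alternatives covered scaling, filters, DESeq2 1.42.0, blocks, libraries, lines, days left out, a slope over days and a fold minimum. Offsets for exon length and GC content, day 5 against day 1 and day 3 against day 2 were chosen after seeing the data. On simulated counts, the 3-line test recovered 85 of 99 genes changed by 1 and 97 of 98 changed by 2 on the log2 scale, and called 12 of 12584 unchanged genes. For changes of 1 and of 2, the EA1 test recovered 22 of 99 and 89 of 100 genes, the test between lines 2 of 100 and 70 of 99, and DMSO against alectinib 42 of 99 and 85 of 100. The simulated counts were independent between libraries, with the same fixed spread for every gene and no effect of day. They may therefore overstate recovery and understate false calls in the real libraries.

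Named genes were the 10 largest rises and 10 largest falls among called genes with 1 sign in every line and a mean log2 CPM of 3 or more, up to 4 members of each list with the smallest p-value, genes the study names for these lines with a few cell cycle genes, as well as those 5 that ranked lowest in p between lines and those 5 between treatments. Some of them are not described. S phase and G2/M lists are those of Seurat, and the others were written from general knowledge. The samples, lists and rules were chosen with earlier results of these data known, and the lists have no test of their own. Promoters came from RefSeq (GRCm38.p6). Some genes and 1 gene list are not reported here.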

Additional observations from a re-analysis of the deposited data

Results flagged for a closer look

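Single libraries stood apart from the other 5 of their group for some of the genes named above and for the antigen presentation gene Tap2. In each, the gap to the nearest other library, divided by the whole range of the group, passed 0.625. Of 246 groups of 6 libraries tested, 27 did so. About 1 in 20, or 12.3, would be flagged if the 6 libraries were draws from the same normal distribution. Each group mixes lines and days, so 12.3 is not a chance rate for these data. Early, the EA1 day 2 library stood apart in Pfkp (244 CPM against 9.27 to 89.2 CPM, ratio 0.660), Gdf15 (224 CPM against 1.95 to 61 CPM, ratio 0.734), Aldh1l2 (47.5 CPM against 6.73 to 18 CPM, ratio 0.723) and Tap2 (3.79 CPM against 0.142 to 1.45 CPM, ratio 0.642). Early, the EA3 day 1 library stood apart in Tubb3 (79.4 CPM against 16.6 to 38.8 CPM, ratio 0.647) and Npc1 (45.2 CPM against 22.1 to 30.6 CPM, ratio 0.632). Early, the EA3 day 2 library stood apart in Adm (6.48 CPM against 0 to 0.177 CPM, ratio 0.973), Hilpda (112 CPM against 12.9 to 32.6 CPM, ratio 0.801), Egln3 (334 CPM against 33.2 to 130 CPM, ratio 0.677), P4ha2 (131 CPM against 13 to 52.2 CPM, ratio 0.667), Gadd45a (74.7 CPM against 3.89 to 21.6 CPM, ratio 0.75), Espn (6.36 CPM against 0.0885 to 0.414 CPM, ratio 0.948), Lilr4b (15 CPM against 0 to 2.23 CPM, ratio 0.851), Csf2 (8.84 CPM against 0.724 to 2.75 CPM, ratio 0.751) and H2-K1 (158 CPM against 15.1 to 42.9 CPM, ratio 0.805). Late, the EA1 day 3 library stood apart in Gdf15 (2270 CPM against 95 to 653 CPM, ratio 0.744), Ppp1r15a (666 CPM against 24.8 to 166 CPM, ratio 0.780), Areg (2295 CPM against 92.8 to 669 CPM, ratio 0.738) and Ptgs2 (1663 CPM against 143 to 651 CPM, ratio 0.665). Late, the EA2 day 5 library stood apart in Dna2 (12.9 CPM against 1.62 to 5.7 CPM, ratio 0.640) and Relb (22.1 CPM against 38.4 to 46.7 CPM, ratio 0.660). Late, the EA3 day 3 library stood apart in Slc7a11 (640 CPM against 87.6 to 191 CPM, ratio 0.813). Late, the EA3 day 5 library stood apart in Adm (208 CPM against 0 to 11.1 CPM, ratio 0.946), Pmaip1 (152 CPM against 5.94 to 39.8 CPM, ratio 0.769), Jun (276 CPM against 56.1 to 130 CPM, ratio 0.665), Espn (124 CPM against 0.678 to 7.26 CPM, ratio 0.947) and H2-K1 (431 CPM against 29.2 to 166 CPM, ratio 0.659).

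The change of Dusp5 with time differed between DMSO and alectinib cultures, by 2.11 on the log2 scale.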

How the results depend on the processing

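Over the 3 lines, 1181 genes were higher and 1232 lower. Leaving out a day gave 86 and 107 (day 1), 688 and 632 (day 2), 858 and 548 (day 3) and 616 and 350 (day 5). Leaving out a line gave 480 and 508 (EA1), 470 and 407 (EA2) and 109 and 61 (EA3). Without the replicate block, that is without the pairing of libraries by line, 13 and 17 genes passed. Without it 100 named genes also lost their call. DESeq2's Wald test gave 1817 and 1463, 24 libraries in 1 fit 1656 and 1860, a change of at least 1 in size 466 and 330, day 5 against day 1 alone 6 and 2, and day 3 against day 2 alone 173 and 103. Leaving out 1 library at a time gave 726 to 1460 higher and 536 to 1516 lower. Without a single library, 2 to 17 named genes lost their call, most without EA1 day 1. Fits without a day, line or library hold fewer samples, and the cause was not tested otherwise.

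Line by line, higher and lower, EA1 had 365 and 411 with no filter on low counts, 407 and 432 by DESeq2's Wald test, 0 and 0 when fitted alone, and 0 to 105 and 0 to 175 without 1 library. EA2 had 53 and 6, 11 and 5, 529 and 321, and 0 to 0 in the same settings. EA3 had 769 and 509, 871 and 720, 0 and 0, and 0 to 466 and 0 to 494. The test between lines gave 101 genes with no filter and 0 to 0 without a library. DMSO against alectinib gave 728 genes with no filter, 4 with offsets for exon length and GC content, 0, 2, 0 and 0 without days 1, 2, 3 and 5, 5 with no replicate block (day left out) and 0 to 6 without a library.

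Among log2 fold changes of single genes, 37 values changed sign, all in genes that had not passed apart from Hspa1a. Ldha became 0.18 without day 2, 0.37 without day 3, 0.048 with no replicate block, 0.16 as a slope per doubling of days, 0.25 without EA2 and 0.54 for day 5 against day 1, and was -0.29 to 0.11 without a library. Dusp6 became 0.017 with DESeq2 size factors and with DESeq2's Wald test, 0.00083 with no filter, 0.023 with at least 10 counts in every library, 0.050 with the offsets, 0.24 without day 2, 0.10 without day 5, 0.054 with no replicate block, 0.061 as a slope, 0.20 without EA1 and 0.15 for day 5 against day 1, and was -0.077 to 0.082 without a library. Alk became -0.12 with the offsets, -0.066 without day 3, -0.019 as a slope, -0.078 without EA2 and -0.15 for day 5 against day 1. Hspa1a was -0.17 for day 3 against day 2, Htra1 -0.24 without EA1, Lifr -0.094 and Pdlim1 -0.064 without EA3. Of the other values of single genes, 2766 kept their sign and side of the threshold, 658 lost and 25 gained the call.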
